A study of Rattus norvegicus with 5 samples.

Results

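N6-methyladenine (6mA) peaks of neural stem cells (NSCs) were examined in DNA of the SCR022 line, a line of adult rat hippocampal neural stem cells. All rows on sequences named chr in the deposited list of NSC peaks over NSC input were taken. They gave 121816 peaks of the 375486 such peaks in the 3 lists over input. The list of Neurons holds 137579 peaks and that of Astrocytes 116091. An NSC peak that overlapped no peak of either other list by 1 bp or more was called NSC-only, and the remaining NSC peaks were called shared. Each cell type had 1 immunoprecipitated library, made from sonicated genomic DNA with an antibody against 6mA, and an unenriched input for NSCs and for Neurons was among the samples. The labels give no treatment, genotype or age, and describe the other libraries as Neurons and Astrocytes without a source. SCR022 is 1 cell line, so no spread between cultures or animals could be measured, and differences between lists cannot be told apart from differences between single libraries. The assay reads DNA, so the cell types could not be checked against the expression of their markers.

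6mA is adenine that carries a methyl group on its exocyclic amino group. It is common in bacterial DNA, while its amount in mammalian nuclear DNA, and whether it is written there by a dedicated enzyme, is disputed. N6amt1 has been proposed as such a methyltransferase, and the series' title names N6amt1, the thioredoxin reductase gene Txnrd3 and hippocampal neurogenesis. Hippocampal neural stem cells divide, renew themselves and give rise to granule neurons and astrocytes.

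The NSC peaks covered 63.8 Mb. NSC-only peaks numbered 39125, or 32.1% of the list (exact 95% interval 31.9 to 32.4, counting error only), and covered 16.4 Mb. A further 17671 peaks (14.5%) overlapped a Neurons peak but no Astrocytes peak, and 11879 (9.75%) overlapped an Astrocytes peak but no Neurons peak. The largest set, 53141 peaks (43.6%), overlapped both and covered 33.2 Mb. NSC-only peaks were therefore fewer and covered less DNA than the peaks found in all 3 lists.

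The sequences of Mir137 and Mir135a are given first. Mir137, a brain-enriched microRNA gene whose product is known to regulate neural stem cell proliferation and differentiation, was the only microRNA gene with 2 NSC-only peaks. Their scores were 95.3 and 85.05, and neither was in the authors' deposited tables of regions higher in NSCs. Mir135a carried an NSC-only peak that the authors' deposited tables also list as higher in NSCs than in both other cell types. Their mature sequences from RefSeq (GRCr8) follow, with the seed, bases 2 to 8, in capitals.
rno-miR-137-3p: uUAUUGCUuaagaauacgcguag
rno-miR-137-5p: aCGGGUAUucuuggguggauaa
rno-miR-135a-5p: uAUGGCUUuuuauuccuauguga
rno-miR-135a-3p: uGUAGGGAuggaagccaugaaa

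Among promoter peaks, the 250 bases before the start of 3 genes with NSC-only peaks of high fold (Nrf1, Copg2 and Uba3) are shown beside those of 2 genes whose promoter peaks of high fold were found in all 3 lists (Irgc and Fanci). The choice of the shared genes to print was made after their values were seen. Capitals mark GATC, the bacterial adenine methylation site, and GAGGC (also with C as its first letter, with T as its last, or with both), forms of an AGG-centred motif tied to 6mA in animals, on either strand. These windows are RefSeq sequence of GRCr8. No label or header used here names the build of the peak files. Where a peak lies relative to its window, and whether it overlaps the window at all, is therefore not known.
Nrf1, chr4:59632176-59632425, plus strand: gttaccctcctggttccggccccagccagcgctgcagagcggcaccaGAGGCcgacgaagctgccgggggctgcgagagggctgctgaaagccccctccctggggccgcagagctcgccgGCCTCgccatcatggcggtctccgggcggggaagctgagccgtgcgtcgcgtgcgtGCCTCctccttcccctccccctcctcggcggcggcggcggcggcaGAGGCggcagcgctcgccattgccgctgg
Copg2, chr4:60468954-60469203, minus strand: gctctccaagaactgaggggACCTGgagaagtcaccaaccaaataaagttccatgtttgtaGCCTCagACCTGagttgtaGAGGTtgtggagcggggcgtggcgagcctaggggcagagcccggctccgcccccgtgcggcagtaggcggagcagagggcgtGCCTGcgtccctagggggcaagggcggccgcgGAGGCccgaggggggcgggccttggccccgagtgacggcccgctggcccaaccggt
Uba3, chr4:131367269-131367518, minus strand: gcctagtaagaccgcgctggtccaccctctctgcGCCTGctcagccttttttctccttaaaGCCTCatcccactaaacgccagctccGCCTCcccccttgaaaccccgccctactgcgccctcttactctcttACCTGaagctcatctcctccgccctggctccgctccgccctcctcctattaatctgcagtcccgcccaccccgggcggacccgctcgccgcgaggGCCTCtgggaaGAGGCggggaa
Irgc, chr1:89151737-89151986, minus strand: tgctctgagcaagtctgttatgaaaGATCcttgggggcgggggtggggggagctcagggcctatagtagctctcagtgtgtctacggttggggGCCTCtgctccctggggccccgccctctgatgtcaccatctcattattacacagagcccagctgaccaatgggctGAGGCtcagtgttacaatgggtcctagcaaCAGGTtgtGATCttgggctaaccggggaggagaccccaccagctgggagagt
Fanci, chr1:142736403-142736652, plus strand: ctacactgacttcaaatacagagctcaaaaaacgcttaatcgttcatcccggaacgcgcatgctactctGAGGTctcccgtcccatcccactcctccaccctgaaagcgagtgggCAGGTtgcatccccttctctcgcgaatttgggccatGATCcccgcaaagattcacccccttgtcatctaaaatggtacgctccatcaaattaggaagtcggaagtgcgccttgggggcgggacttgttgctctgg

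The 3 NSC-only windows held 4 (Nrf1), 6 (Copg2) and 6 (Uba3) copies of the AGG-centred motif and 0 copies of GATC. The Irgc window held 3 copies of the former and 2 of GATC, and the Fanci window 2 and 1. The windows of Cecr6 and Prkd2, which also had promoter peaks of high fold in all 3 lists and are not printed, held 5 and 1 and 0 and 0 in the same order, so single windows of shared peaks ranged from 0 to 5 copies of the AGG-centred motif. Over the 464 genes with an NSC-only promoter peak and none found in all 3 lists, 89.7% (86.5 to 92.3) of windows held the AGG-centred motif, against 95.7% (93.96 to 97.1) of the 722 genes with a promoter peak found in all 3 lists and no NSC-only one. The share over all 27457 promoter windows was 90.8%, so the NSC-only promoters lay near the background and the shared ones above it. GATC was present in 37.3% of NSC-only windows, 39.3% of those found in all 3 lists and 40.4% of all windows. The CA repeat CACACACACA was in 1.51%, 1.39% and 0.954%, and GAGAGAGAGA in 0.431%, 0.693% and 0.714%. A match of letters is a description of the window, and the methylated base itself was not resolved by this assay.

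NSC-only peaks were the weaker members of the list. The fold enrichment and the score of each peak are the authors', the score is −log10 p multiplied by 10, and the lowest in the list is 50. The median score was 64.0 for NSC-only peaks, 77.1 for those shared with Neurons or with Astrocytes alone, and 166 for peaks found in all 3 lists. Median folds over input were 10.03, 11.28, 11.28 and 16.7 in the same order. A score of at least 100 was reached by 42.1% of all NSC peaks, by 11.8% of NSC-only peaks and by 72.1% of peaks found in all 3 lists. NSC-only peaks were also narrower, with a median width of 391 bp against 568 bp for peaks found in all 3 lists. A wider peak meets an overlap of 1 bp more easily, so the width difference is not independent of how the sets were defined. In the upper tails, 1 in 100 NSC-only peaks exceeded a fold of 20.2 and a score of 174, and 1 in 100 peaks found in all 3 lists exceeded a fold of 80.2 and a score of 2345.

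Part of the folds of the NSC list fell on a ladder of steps. Whole multiples of 1.2537, within 0.0051, made up 31.8% of all NSC folds, and the remaining folds lay off the ladder. They made up 41.5% of NSC-only folds and 23.8% of folds of peaks found in all 3 lists. The width of the tolerance alone covers 0.814%. The step was fitted to the commonest folds of this same list, and the 0.814% does not allow for that choice. The commonest NSC-only values were 10.03 (3553 peaks), 11.28 (3185 peaks) and 12.54 (2723 peaks). The median multiple was 9 for NSC-only peaks and 14 for peaks found in all 3 lists. The fold of a typical NSC-only peak on the ladder could thus take few values, and neighbouring values differ by 1 step. What sets the step was not tested.

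**Figure D1:**
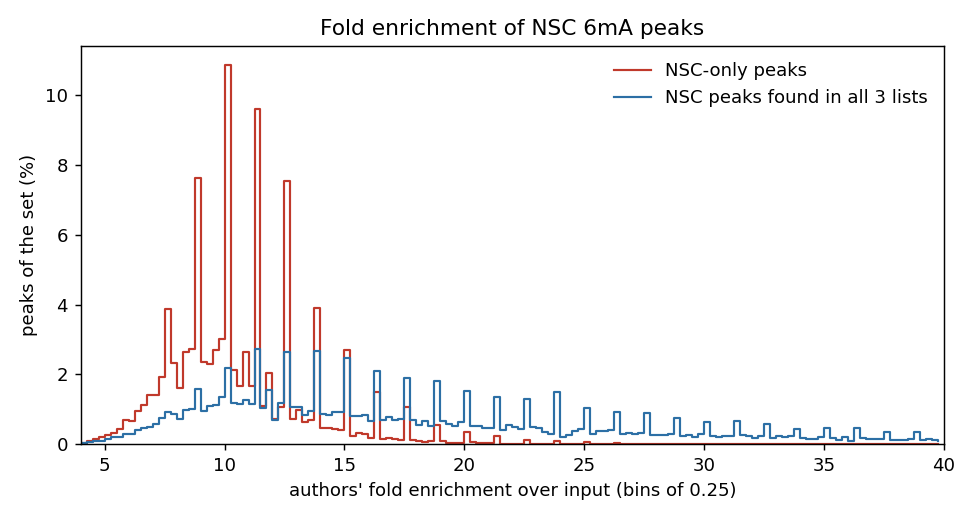
Share of NSC-only peaks (red) and of NSC peaks found in all 3 lists (blue) in each bin of the authors' fold enrichment over input, from 4 to 40. Both sets show spikes at regular steps; the red bins that hold 10.03 and 11.28 are the tallest, followed by those that hold 8.78 and 12.54, and the blue line extends to the right edge.

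The share of peaks found in no other list fell with the score. It was 59.9% at scores from 50 to 60, 47.7% from 60 to 80, 33.4% from 80 to 100, 19.7% from 100 to 150, and 5.02% from 150 to 300. At scores of 300 and above, 34 of 16001 peaks, or 0.212% (0.147 to 0.297), were NSC-only. Promoter peaks followed the same order, from 57.8% in the lowest band to 0 of 544 in the highest, which allows a share of up to 0.676% as the upper exact bound. Exon peaks went from 64.2% to 0 of 623. The median distance of an NSC-only peak to the nearest Neurons or Astrocytes peak was 4.28 kb (quartiles 1.51 and 9.49), and 18.4% lay within 1 kb of one.

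The shares of NSC-only peaks in genes were a few percentage points or less below those of peaks found in all 3 lists. Introns held 31.7% (31.2 to 32.2) of NSC-only peaks and 35.3% (34.9 to 35.7) of peaks found in all 3 lists. Promoters held 2.75% (2.59 to 2.92) and 3.20% (3.05 to 3.35), and exons 2.61% and 3.14%. The promoter share of NSC-only peaks minus that of all shared peaks was -0.317 percentage points (-0.516 to -0.113), and with peaks within 1 kb of another list counted as shared it was -0.109 (-0.323 to 0.110), an interval that holds 0. CpG islands held 0.158% (0.122 to 0.203) and 0.177% (0.143 to 0.216), whose intervals overlap. No gene or CpG island class was given for 63.7% of NSC-only peaks and 59.7% of peaks found in all 3 lists. Peaks shared with Neurons alone or with Astrocytes alone lay near NSC-only peaks. Introns held 32.2% and 32.3% of them, promoters 2.97% and 2.63% and exons 2.35% and 2.40%. No class was given for 63.3% and 63.5%. The lower shares in genes were therefore not particular to NSC-only peaks. The intervals cover counting error between peaks of 1 library, and the spread between cultures was not measured.

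Per chromosome, the density of NSC-only peaks was more even than that of shared peaks. The autosomes held 9.59 to 16.5 NSC-only peaks per Mb, with a median of 14.2, and 17.8 to 45.3 shared peaks per Mb, with a median of 32.4. The X chromosome held 13.9985 NSC-only and 17.6 shared peaks per Mb. Its density relative to all autosomes was 0.994 for NSC-only peaks, 0.576 for shared peaks and 0.427 for peaks found in all 3 lists. As a result 44.3% of the 5050 X peaks were NSC-only, against 31.6% of autosomal peaks, and chromosome 12 had the lowest share of all chromosomes at 20.96%. The Y had 43 NSC peaks, 18 of them NSC-only, over the 3.09 Mb it covers in the files and is not plotted.

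The X also carried weaker peaks, with a median score of 74.3 against 87.5 on autosomes, while that of chromosome 12 was 114. Within score bands the order was kept: from 100 to 150, the NSC-only share was 24.5% on the X, 19.5% on autosomes and 12.1% on chromosome 12. From 150 to 300 it was 9.95%, 4.89% and 3.93%, where the interval of chromosome 12 (2.38 to 6.08) held the autosomal value. A higher share of peaks unique to a list on the X was also seen for Neurons, at 46.1% against 35.7% on autosomes, and for Astrocytes, at 39.7% against 28.8%. On chromosome 12 the share was below the autosomal value in these lists too, at 28.7% for Neurons and 19.7% for Astrocytes. The patterns of the X and of chromosome 12 were therefore not particular to NSCs. The labels do not give the sex of any of the cells.

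**Figure D2:**
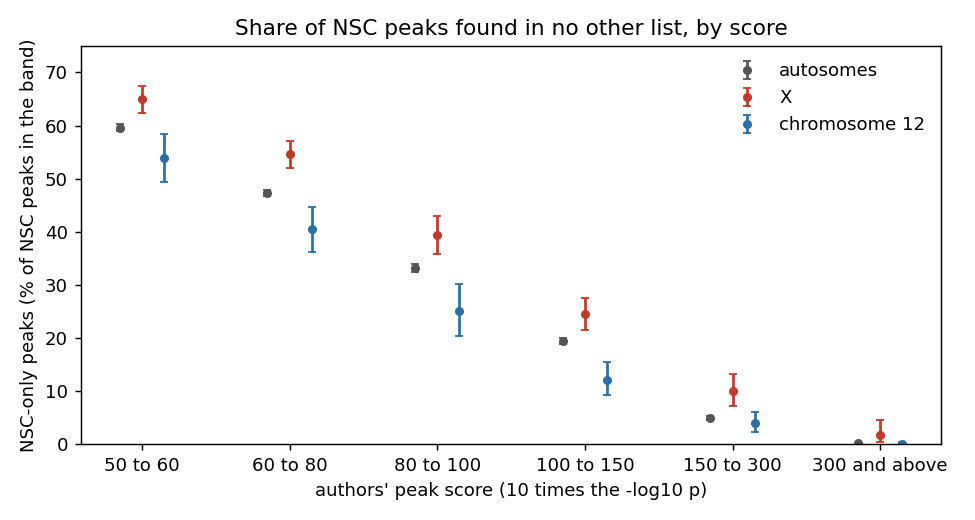
Percent of NSC peaks that were NSC-only in each band of the authors' score, for autosomes (grey), the X (red) and chromosome 12 (blue), with exact 95% intervals for counting error. The X point lies above the autosome point in every band and the chromosome 12 point below it, from 65.0%, 59.6% and 54.0% in the lowest band down to values near 0.

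**Figure D3:**
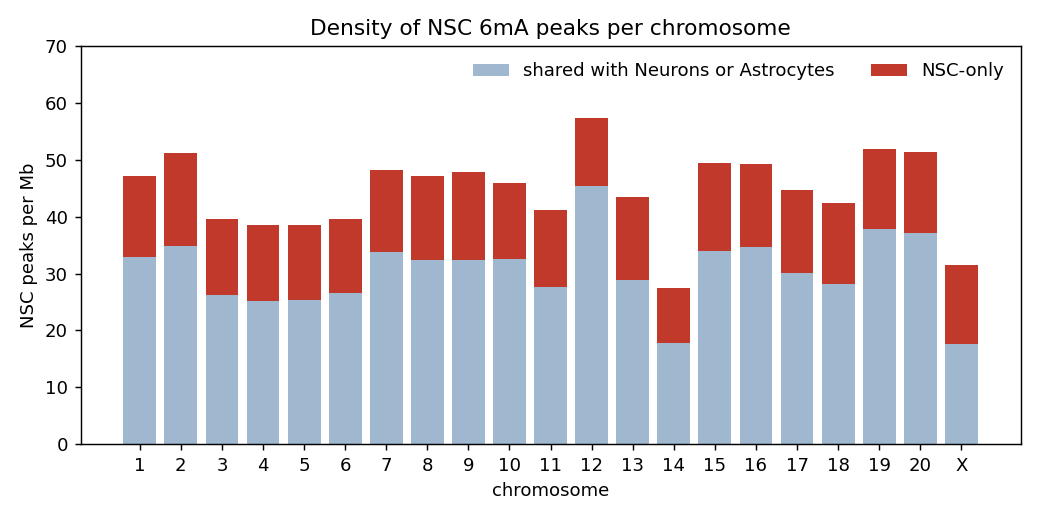
NSC peaks per Mb of each autosome and the X, taking the largest peak end as its length, split into shared (blue) and NSC-only (red) peaks. The red segments are of similar height, with the lowest on chromosome 14 at 9.59 per Mb, while the blue bars range from 17.6 on the X to 45.3 on chromosome 12.

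The direct comparisons of immunoprecipitated libraries listed part of the NSC-only peaks. By the authors' deposited tables, 16.9% of all NSC peaks and 37.9% of NSC-only peaks lay in a region higher in NSCs than in Neurons. Against Astrocytes the shares in the authors' deposited tables were 20.2% of all NSC peaks and 39.8% of NSC-only peaks. Regions higher in NSCs in both comparisons of the authors' deposited tables held 8.24% of all NSC peaks and 21.7% (8473) of NSC-only peaks. Both comparisons use the same NSC library, which also gave the peaks. In neither table were 44.0% (17206) of NSC-only peaks listed as higher in NSCs, so absence from the other lists came without a listed difference for these. No NSC-only peak lay in a region listed as higher in Neurons or in Astrocytes. NSC-only peaks were chosen for lacking a peak in those lists, so this absence and the shares given above are not independent of that choice. By the authors' deposited tables, 3 of the 17671 peaks shared with Neurons alone lay in regions higher in Astrocytes. Of the 11879 shared with Astrocytes alone, 2 lay in regions higher in Neurons.

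Listing was commoner at high scores. Of the 4618 NSC-only peaks with a score of at least 100, 46.7% (45.2 to 48.1) were in both of the authors' deposited tables and 18.6% in neither. Of the 34507 with a lower score, 18.3% (17.9 to 18.7) were in both of the authors' deposited tables and 47.4% in neither. Peaks found in all 3 lists were rarely listed: 3.37% lay in regions higher in NSCs than in Neurons and 9.09% in regions higher in Neurons. Against Astrocytes the values in the authors' deposited tables were 5.37% and 5.27%.

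**Figure D4:**
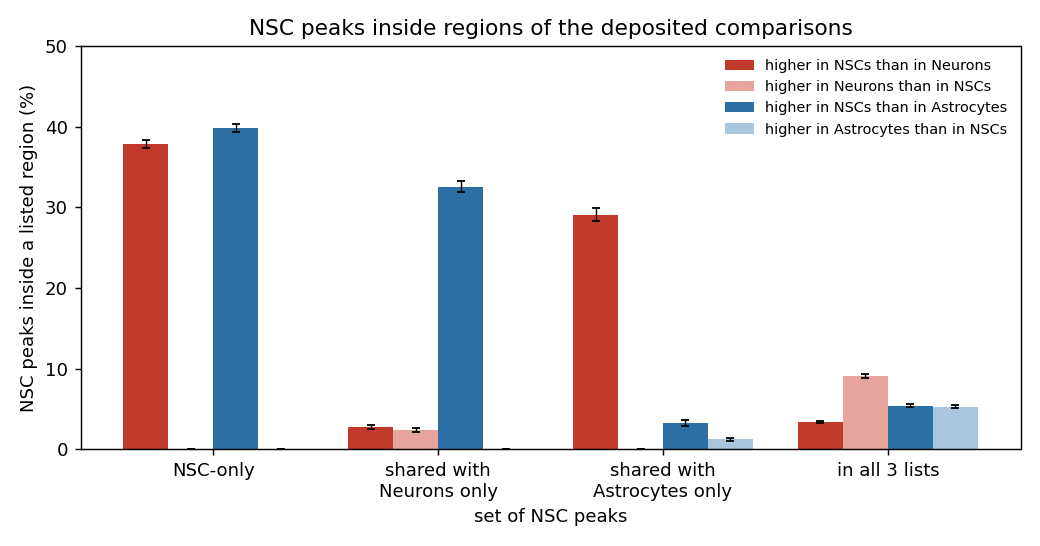
Percent of each set of NSC peaks that lay in a region of the authors' deposited comparison tables, with exact 95% intervals for counting error; dark bars mark regions higher in NSCs and pale bars regions higher in the other cell type. NSC-only peaks reach 37.9% and 39.8% in the dark bars and 0 in the pale ones, and peaks found in all 3 lists stay under 10% in every bar. The sets were defined by overlap with the peaks of the other cell types, so the bars are not independent of that definition.

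The 10 genes with the highest-fold NSC-only peaks all carried them in introns, and all 10 peaks were also in regions higher in NSCs in both of the authors' deposited tables. Only peaks with a gene name were eligible, and 24934 of the 39125 NSC-only peaks had no gene or CpG island class. Introns held 12400 NSC-only peaks and gene bodies 12706, so most NSC-only peaks with a class were intronic. Both of the authors' deposited tables held 21.7% of all NSC-only peaks and 46.7% of those with a score of at least 100. Slc12a2, a sodium, potassium and chloride cotransporter, had a peak of fold 32.6 at chr18:52944366-52944940 in the files' own build. The authors' deposited table gave this region a fold of 20.3 over Neurons, and the table for Astrocytes 11.2. Nbea, a scaffold protein of membrane traffic, also had a peak of fold 32.6, with a score of 262. Gripap1, which acts in the endosomal traffic of glutamate receptors, lay on the X with a fold of 32.1. Dbr1, the enzyme that opens intron lariats, had a fold of 30.5 over input and the largest folds of the 10 in the authors' deposited tables, 33.4 over Neurons and 36.2 over Astrocytes.

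Lrch2 and Map2k3, the latter a kinase that activates p38, each had a fold of 30.1. Sparcl1, a secreted matrix protein made by astrocytes, had the highest score of the 10, 322, with a fold of 28.8. Zdhhc20, a palmitoyltransferase, followed with 28.0, and Tox, a transcription factor with an HMG box, and the kinase gene Map3k15 with 27.6 each. Of the 10, 3 lay on the X (Gripap1, Lrch2 and Map3k15), as did 2239 of all 39125 NSC-only peaks.

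By comparison, the 10 highest-fold named peaks found in all 3 lists ran from 158 to 227. Rreb1, a zinc finger transcription factor, had a fold of 227 in the NSC list, with 149 for the overlapping peak of Neurons and 162 for that of Astrocytes. These folds come from separate lists with separate inputs and were not compared. Chd9, a chromatin remodeller, had 205 in the NSC list, and Dab1, the adaptor of reelin signalling, 187. The Dab1 region was listed as higher in NSCs in both of the authors' deposited tables, at 8.74 over Neurons and 6.60 over Astrocytes. Zfp277 was the other of the 10 listed in both, and 6 of the 10 were in neither.

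At promoters, the highest NSC-only fold was that of Nrf1, a transcription factor of mitochondrial genes, at 23.8 (chr4:57386478-57386901, overlapping an exon). The authors' deposited table gave it 8.21 over Neurons, and that for Astrocytes 11.8. Copg2, a subunit of the COPI vesicle coat, followed at 20.1, then the olfactory receptor gene Olr880 at 19.3 and Uba3, a subunit of the NEDD8-activating enzyme, at 18.1. Xpo7 (an exportin), Trem1 (a receptor of myeloid cells), Med15 (a subunit of Mediator) and Fam184b each stood at 17.6, which is a value of the step ladder. Mrps15, a protein of the mitochondrial ribosome, stood at 17.3, as did Fam19a1. Of these 10 promoter peaks, 6 were in both of the authors' deposited tables, 2 in 1 table and 2 (Med15 and Fam184b) in neither.

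In exons away from promoters, the AMPA receptor subunit gene Gria4 had the highest NSC-only fold, 25.8, and a fold of 27.9 over Astrocytes in the authors' deposited table. Dennd4c stood at 22.6, Klhdc2 at 21.3, Cpa6 at 20.8 and Slmap at 20.7. At CpG islands or shores, Ak3, a mitochondrial adenylate kinase, stood at 21.2, Efcab11 at 21.1 and Hpse2 at 16.9, beside Med15 and Mrps15 of the promoter set. All of these peaks were below the folds of the intronic 10.

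The highest NSC-only scores came from a single block inside Glra3, a glycine receptor subunit gene, which was singled out after its values were seen. It was made of 3 consecutive intronic peaks, 1193, 8930 and 18016 bp wide, separated by at most 41 bp, and spanned 28.2 kb (chr16:37755437-37783645). Their folds were 21.1, 17.3 and 16.6, and their scores 676, 1544 and 991. The last was the widest peak of the NSC list. The Astrocytes list had its own block of 2 peaks over 5.03 kb, which ended 1.52 kb before the NSC block. The authors' deposited tables of NSCs against Neurons and Astrocytes had 0 regions inside the NSC block. Glra3 held 10 NSC peaks in all. Among peaks of at least 1 kb, 293 of 5024 (5.83%) were NSC-only. The next 9 NSC-only scores, from 403 to 644, belonged to peaks outside named genes, and all 9 were in both of the authors' deposited tables.

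NSC peaks were assigned to 15699 gene names, of which 7830 (49.9%) had an NSC-only peak and 2924 (18.6%) had no other kind. Of RefSeq protein-coding genes, 41.8% had an NSC peak and 22.8% an NSC-only peak. Most genes whose peaks were all NSC-only had a single peak (2554), and 76 had 3 or more. Pola1, the catalytic subunit of DNA polymerase alpha on the X, had 7 peaks, all NSC-only, with folds from 7.52 to 13.8. Their scores ran from 50.2 to 74.5, near the lowest score of the list. The authors' deposited tables listed 1 of the 7 as higher in NSCs in both comparisons and 5 in neither. Acmsd, an enzyme of tryptophan breakdown, had 6 of 6, including a promoter peak. Its folds ran from 6.84 to 17.3 and its scores from 51.04 to 114. Of the 6, 2 were in both of the authors' deposited tables and 2 in neither.

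Mllt10, a cofactor of the histone methyltransferase Dot1l, had 5 of 5, with scores from 50.05 to 97.2. The monoamine oxidase gene Maoa on the X and the glial glutamate transporter gene Slc1a3 each had 4 of 4. The folds of the Slc1a3 peaks were 7.77, 10.5, 12.1 and 8.22 in order along chromosome 2, with scores from 63.2 to 78.8. In the authors' deposited tables, 2 of these were in both comparisons and 2 in neither. The folds of the Maoa peaks ran from 8.78 to 16.8 and their scores from 52.98 to 135. The other 9 genes with 4 such peaks were Fam13a, Rfx7, Pex5l, Edc3, Dcbld1, Sucla2, Mast2, Vsnl1 and Tcn2. Highest folds per gene in the whole set of 14 ran from 9.28 to 17.6, so none held a peak as high as those of the 10 intronic genes.

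Counts of NSC-only peaks were highest in very long genes. Csmd3, which encodes a large transmembrane protein with CUB and sushi domains, had 37 among its 77 NSC peaks over a length of 1319 kb. Dpp10, an auxiliary subunit of potassium channels, had 36 of 109. The neuronal adhesion gene Cntnap2 had 29 of 64, Galntl6 29 of 83, Csmd1 27 of 84, Lrp1b 27 of 79 and Zfp385d 27 of 53. Ctnna3 had 25 of 95, Dpyd, which degrades pyrimidines, 24 of 68, and Cntnap5c 23 of 53. Density was computed among genes of at least 20 kb with at least 3 NSC-only peaks, taking as length the longer of the RefSeq length and the span of the gene's peaks. By this measure Glipr1l1 led with 18.5 per 100 kb, followed by Zfp92, Rps19l1, Acmsd, Adgrf4, Camk1g, Serpinb8, Vps36, Cidea and Alox5ap. Rps19l1 entered by the 20.987 kb span of its 3 peaks, since its RefSeq length is 0.629 kb.

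The share of protein-coding genes with a peak rose with gene length. In the shortest decile 9.76% had an NSC peak and 3.84% an NSC-only peak, and in the longest 89.9% and 74.3%. Median lengths were 36.3 kb for genes with an NSC peak, 20.8 kb for genes whose peaks were all NSC-only and 15.5 kb for all protein-coding genes. Lists of genes were therefore read beside the count that genes of the same length deciles give.

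Across 19 gene lists, 416 genes were matched, of which 233 had an NSC peak and 141 an NSC-only peak, beside 214.8 and 132.1 from gene length. No list was tested. At a score of at least 100 the NSC-only counts fell to between 0 and 12 per list, and 6 lists changed side against the count from length. Stem and progenitor genes had a peak in 11 of 26 (10.6 from length) and an NSC-only peak in 5 (6.58 from length). These 5 were Ptprz1, Gli2, Msi2, Tnc and Lpar1. None of them had an NSC-only peak with a score of at least 100, beside 1.46 genes from length. Ptprz1, a receptor phosphatase of neural progenitors, had 4 of its 5 peaks in NSC-only form, the highest with a fold of 15.96. Gli2, a transcription factor of hedgehog signalling, had 3 of 14 with a highest NSC-only fold of 12.4, and the RNA-binding Msi2 had 5 of 8 with 9.60. Vim, Msi1, Prom1, Nr2e1, Gli1 and Gli3 had NSC peaks that were all shared.

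Cell cycle genes had a peak in 11 of 34 (13.4 from length) and an NSC-only peak in 9 (6.56 from length), but 8 of these 9 had no NSC-only peak with a score of 100 or more. Incenp, a subunit of the chromosomal passenger complex, was the exception, with a score of 104. The count at that score was therefore 1, beside 1.07 from length. Top2a, Ccnd1, Cdkn1a and Mcm6 each had a single NSC peak, with folds of 9.54, 9.21, 7.56 and 9.75, and it was NSC-only in each.

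Growth factor receptors had an NSC-only peak in 9 of 21 (9.30 from length), and in 4 (1.99 from length) at a score of at least 100. The neuregulin receptor gene Erbb4 had 21 NSC-only peaks among 45, and the neurotrophin receptor genes Ntrk2 and Ntrk3 had 4 of 8 and 8 of 20. The highest NSC-only peak of Ntrk2 had a fold of 20.1 and a score of 273, and the authors' deposited tables list it in both comparisons, at 7.66 over Neurons and 6.79 over Astrocytes. Egfr had 3 of 4 in NSC-only form and Fgfr1 1 of 1.

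Of the signalling lists, BMP and TGF-beta genes had an NSC-only peak in 15 of 29 (11.6 from length), among them the receptor genes Bmpr1a (2 of 2 peaks) and Bmpr1b (5 of 8) and the ligand gene Tgfb2 (5 of 14). At a score of at least 100 this count was 2, beside 2.31 from length. Notch genes had 8 of 24 (7.83 from length), with Adam10, the protease that cleaves Notch, at 3 of 5 peaks. Wnt genes had 10 of 28 (10.4 from length), with the transcription factor gene Lef1 at 5 of 8. Hedgehog genes had 5 of 16 (5.72 from length).

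Neuronal fate genes had an NSC-only peak in 8 of 28 (8.43 from length), including Dcx, the doublecortin gene on the X, with 2 of 3 peaks, and Ncam1 with 5 of 11. Astrocyte genes had 8 of 25 (8.11 from length), oligodendrocyte genes 2 of 15 (4.18 from length), microglia genes 1 of 14 (2.49 from length), vessel genes 5 of 11 (3.86 from length) and liver genes 3 of 21 (3.51 from length). Lists of other cell types thus had NSC-only peaks as well. Glutamate receptor genes had 18 of 20 (13.1 from length), with Grm7 at 17 of 24 peaks and Grik2 at 15 of 36, and synaptic adhesion genes 24 of 29 (18.8 from length). These lists stayed above the count from length at a score of at least 100, with 7 (3.66 from length) and 12 (5.26 from length). So did vessel genes with 3 (0.767 from length), Notch genes with 2 (1.84 from length) and adenine methylation genes with 1 (0.565 from length). The median length of glutamate receptor and synaptic adhesion genes was 398 kb and 606 kb. Both lie in the longest decile, whose own median is 186 kb, so these 2 lists hold longer genes than the genes they were read beside. Ribosomal protein genes, the shortest list, had 2 of 31 (1.44 from length).

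Adenine methylation genes had an NSC-only peak in 4 of 14 (3.49 from length). Mettl5, which methylates ribosomal RNA, stood at 15.04, the demethylase gene Alkbh1 at 12.5, Mettl16 at 12.3 and Fto, an RNA demethylase, at 9.86. N6amt1 had no NSC peak. Redox genes had an NSC-only peak in 3 of 26 (4.63 from length), namely Txnrd2, Gclm and Sod2. Txnrd3 had 2 intronic NSC peaks, neither of them NSC-only: chr4:121642950-121643355, with a fold of 9.72, overlapped an Astrocytes peak, and chr4:121645855-121646151, with a fold of 11.2, overlapped peaks of both other lists.

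**Figure D5:**
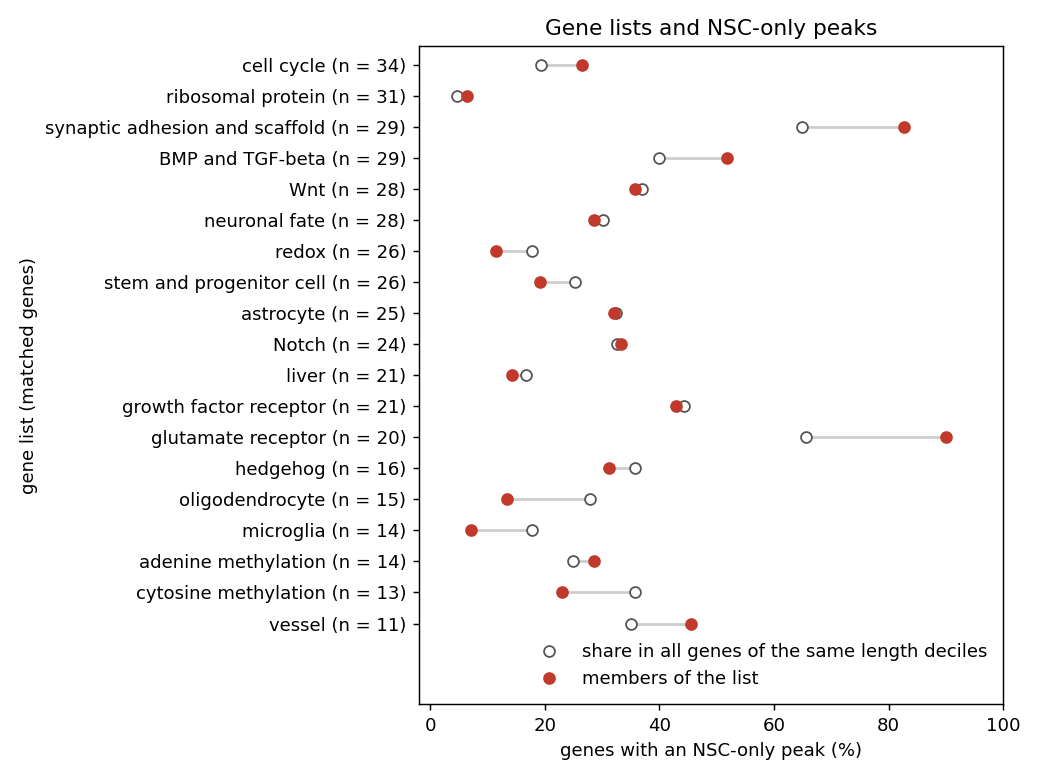
Percent of the matched genes of each list with an NSC-only peak (red) beside the percent among all protein-coding genes of the same length deciles (open circles). The red point lies to the right of the open circle in 8 lists, with the widest gaps for glutamate receptor, synaptic adhesion, BMP and TGF-beta and vessel genes, and to the left in 11.

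MicroRNA genes to which the files assign an NSC peak, by any gene class, numbered 36, of which 12 had an NSC-only peak, and 32 were matched to RefSeq. They were assigned 33 peaks, of which 11 were NSC-only, a share near the 32.1% of all NSC peaks. The share of 12 in 36 genes was below the 49.9% of all gene names with a peak, many of which are far longer than a microRNA gene. NSC-only folds there ran from 7.52 to 16.7 and scores from 50.1 to 126. The Mir137 peaks flanked the gene: the upstream one (chr2:221655776-221656236) had a fold of 11.1 and a score of 95.3, and the downstream one (chr2:221658210-221658740) a fold of 16.7 and a score of 85.1. Neither was in the authors' deposited tables of regions higher in NSCs. The Mir135a peak, with a fold of 12.5, was in both. Of the 12 genes, 2 were in both tables and 4 lay on the X (Mir1912, Mir3589, Mir505 and Mir105). The 47 mature arms found for matched genes had 47 different seeds, so no seed was shared among them. No arm was found for Mir3568, which was matched. The let-7 gene Mirlet7c-1, Mir125b1 and Mir92b had NSC peaks that were shared with 1 other cell type, and Mir187 had a peak of fold 88.1 in all 3 lists.

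The authors' GO and KEGG tables describe the genes of all NSC peaks and not of the NSC-only ones. The authors' deposited table of GO terms gave 61 of 13685 terms (0.446%) more genes than expected at an adjusted p under 0.05, and 14 (0.102%) fewer. In the authors' deposited table of KEGG pathways these were 64 of 325 (19.7%) and 3 (0.923%). The most extreme entry was a deficit: olfactory receptor activity had 200 genes where 545.9 were expected (adjusted p = 6.66e-45 in the authors' deposited table). The median length of those genes was 0.942 kb. The KEGG pathway Ribosome had 27 genes against 71.5 expected in the authors' deposited table.

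Of the pathways with more genes than expected, Metabolic pathways had the smallest p, with 741 genes against 556.5 (adjusted p = 2.18e-07 in the authors' deposited table). Its genes had a median length of 36.9 kb, beside 36.3 kb for all genes with an NSC peak. Focal adhesion had 142 genes against 82.0 (adjusted p = 9.50e-05 in the authors' deposited table), with a median length of 83.2 kb. Axon guidance had 119 against 72.3, adjusted p = 0.00123 in the authors' deposited table, with a median length of 115 kb. Glutamatergic synapse had 85 against 47.1 in the authors' deposited table, with 101 kb. These last 3 pathways thus held longer genes than the NSC list as a whole. The sources used here do not say whether gene length was corrected for.

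Terms past the threshold in the authors' deposited table for NSCs, and not in those for Neurons or Astrocytes, numbered 6 of the 61 in GO and 4 of the 64 in KEGG. They were brain development, SH3 domain binding, heme binding, apical part of cell, iron ion binding and regulation of cell shape in GO, and the ErbB and Hippo pathways, oocyte meiosis and long-term potentiation in KEGG. Brain development had 161 genes against 110.1 expected, with an adjusted p of 0.0376 in the authors' deposited table for NSCs, 0.0573 for Neurons and 0.0636 for Astrocytes. The authors' deposited table for Neurons gave this term 173 genes against 120.3 expected. ErbB signaling had 58 against 35.7 (53 against 39.1 for Neurons), with 0.0371, 0.199 and 0.0964 in the authors' deposited tables in the same order. Hippo signaling had 92 against 63.4 (96 against 69.3 for Neurons), with 0.0371, 0.0684 and 0.187 in the authors' deposited tables. Long-term potentiation had 45 against 26.8 (44 against 29.3 for Neurons), with 0.0474, 0.138 and 0.0710 in the authors' deposited tables. The difference between cell types was not tested, and several of these p-values lie close to the threshold on both sides.

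The NSC library held 15760246 reads, of which 89.71% mapped and 87.47% mapped uniquely, and its input 27936774 reads, of which 99.74% mapped. Of uniquely mapped reads, 7.02% of the immunoprecipitated library and 0.559% of its input were outside the class the file calls in the same chromosome. The immunoprecipitated libraries of Neurons and Astrocytes held 16095308 and 15767015 reads, so the 3 depths lay close together. No replicate stood behind any of the peak lists.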

How the data were processed

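Reads were aligned with BWA, per the submitters' processing notes, which give no version. No source used here names the genome build, annotation, filters or peak caller version. The mapping summary was deposited as read counts per library, with mapping rates as a percent of total reads, and its class of uniquely mapped reads in the same chromosome as another read number whose definition is not given. The authors deposited each peak's score (10 times the −log10 p, minimum 50) and fold enrichment, a ratio over input or over another immunoprecipitated library. Their GO and KEGG tables were deposited with gene counts, expected numbers and adjusted p-values. An astrocyte input appears as 1 row of the mapping summary with no sample of its own, and that row was not used.

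Peaks were overlapped by at least 1 bp in Python 3.11.15 with pandas 2.3.3 and NumPy 2.4.6. The overlap step was tested on simulated peaks with known overlaps. Shares carry 95% intervals (Clopper-Pearson, exact, SciPy 1.17.1), which cover counting error only. With 1 library per group, no test and no p was computed. Classes and gene names are those of the files, and 98.8% of gene symbols other than placeholders matched RefSeq by symbol or by a synonym on the same chromosome (12 synonyms on another chromosome were not used), whose gene lengths (GRCr8) set the 10 length deciles. Named genes are those with the largest folds by class, the most NSC-only peaks, or the most per 100 kb, and those of the gene lists with the largest NSC-only folds. The genes whose peaks were all NSC-only, the microRNA genes, further list members and the terms past the threshold for NSCs alone were chosen after their values were seen. The members, gene lists and alternatives were chosen with earlier results of these data known.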

Additional observations from a re-analysis of the deposited data

How the results depend on the processing

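The promoter, gene body and width differences kept their sign under the alternatives run, but the promoter difference reached an interval that holds 0 and 6 gene lists changed side. The other results listed here are shares, which cannot change sign. They moved more widely, the NSC-only share from 32.1% to as low as 8.996% and the share of genes from 49.9% to as low as 14.3%. No paired analysis was possible because each group is 1 library, and for the same reason no replicate could be left out. The results below are, in order, the NSC-only share, the share found in all 3 lists, the promoter and gene body differences (NSC-only minus shared, percentage points), the width difference in bp, the share of NSC-only peaks in both comparison tables and the share of genes with an NSC-only peak. As reported they were 32.1%, 43.6%, -0.317, -2.49, -123, 21.7% and 49.9%. Requiring 50% of the NSC peak to be covered gave 34.5%, 41.3%, -114 bp, 20.8% and 51.8% for the results that moved. Counting peaks within 1 kb as shared gave 26.2%, 49.1%, -0.109 (interval -0.323 to 0.110), -1.38, -120, 23.2% and 45.0%. A score of at least 100 in all lists gave 24.0%, 57.4%, -0.624, -5.30, -120, 23.8% and 33.5%. A score of at least 100 in the NSC list alone gave 8.996%, 74.7%, -0.704, -5.87, -110, 46.7% and 14.3%, with 38 list genes in place of 141. Under that threshold BMP and TGF-beta (2 against 2.31 from length), cell cycle (1 against 1.07) and ribosomal protein genes (0 against 0.152) went from above to below the count from length, and growth factor receptor (4 against 1.99), astrocyte (3 against 1.79) and liver genes (1 against 0.544) from below to above it. The density ratio of X to autosomes then went from 0.994 to 0.921 for NSC-only peaks and from 0.576 to 0.438 for shared peaks. Equal numbers of peaks per list (116091) gave an NSC-only share of 32.9%. Leaving out unplaced sequence could not change a result, since only rows on sequences named chr had been taken and all of these NSC peaks lay on placed chromosomes. The NSC-only share thus depends on the score threshold. Whether deeper libraries would find more of the weak peaks in a second list was not tested.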
